A study of Mus musculus with 27 samples.

Results

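Costimulatory receptors give a T cell the second signal that goes with recognition of antigen, and 8 of them are described here: Tnfrsf9 (CD137), Tnfrsf4 (OX40), Tnfrsf18 (GITR), Tnfrsf1b (TNFR2), Cd27, Cd28, Icos and Cd226. They were chosen by name from the 35275 genes of the deposited tables, and all 8 passed the filter on low reads at every stage. RNA of P14 CD8 T cells was sequenced from WT, lin28Tg and let-7Tg mice as naive cells, after 12 h of activation and as day 5 cytotoxic T lymphocytes (CTLs). Each of the 9 groups held 3 biological replicates, so that 27 libraries were compared.

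All mice carried the P14 T cell receptor transgene, which recognizes the gp33 peptide of LCMV, on a Rag2-/- background, were of both sexes and were 6 to 10 weeks old. The lin28Tg mice express the RNA-binding protein Lin28B, which blocks maturation of let-7 miRNAs, already during thymic development. The let-7Tg mice carry a doxycycline-inducible let-7g transgene, and experimental and control mice were given doxycycline in drinking water at 2 mg/mL for 4 days. Naive cells came from lymph nodes without treatment in culture. Cells of the 12 h stage were cultured with anti-CD3 at 2 μg/mL and anti-CD28 at 5 μg/mL. CTLs were grown for 5 days with irradiated splenocytes and anti-CD3 at 2 μg/mL, and with IL-2 at 100 U/mL from 48 h on. Doxycycline at 2 μg/mL was in the culture medium of both activated stages, in all genotypes. Stage, culture condition and deposited table cannot be told apart, and in bulk RNA fewer cells of a type and less RNA per cell cannot be told apart either.

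The members of the TNF receptor superfamily in this group bind trimeric ligands of the TNF family on antigen-presenting cells and signal through TRAF adaptors to NF-kB, which favours survival. Cd27 and Cd28 are present on resting T cells, while Tnfrsf9, Tnfrsf4 and Icos are known mainly as receptors that appear after activation. Cd28 and Icos belong to the immunoglobulin superfamily and recruit PI3K, and Cd226 binds nectin family ligands. A miRNA pairs through its seed with sites in the 3′ UTR of a transcript and lowers the level or translation of that transcript. Whether altered let-7 levels went with altered transcript levels of these receptors, and at which stage, was the question put to the data. Levels below are of RNA, and receptor protein was not measured in these libraries. By flow cytometry the study found CD27 and CD28 on the surface of CTLs not significantly different between genotypes.

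Transcripts of the transgenes followed the labels. Lin28b stood at 56.4 to 67.9 FPKM (fragment counts corrected for gene length and library total) in naive lin28Tg cells, 9.94 to 12.6 FPKM at 12 h and 14.0 to 22.4 FPKM in CTLs, against at most 0.059 FPKM in any other library. Col1a1, the gene whose locus holds the let-7g transgene, stood at 9.06 to 62.8 FPKM in the let-7Tg libraries and at no more than 4.93 FPKM elsewhere. Libraries held 13862706 to 23591069 counted reads, with a median of 16761374. Cd8a and Cd8b1, the chains of the CD8 coreceptor, were at 99.8 FPKM or more in all 27 libraries. Both were called lower in lin28Tg than in let-7Tg CTLs, where their summed level was 316 to 354 against 545 to 596 FPKM, and neither was called between these genotypes in naive or 12 h cells. Of 7 T cell markers, 5 were lower and 1 higher in lin28Tg than in let-7Tg naive cells, 4 and 1 at 12 h and 2 and 2 in CTLs, with medians of -0.48, -0.51 and -0.06 (log2).

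Transcripts of other cells differed between genotypes as well. In naive cells the summed level of 6 myeloid markers was 139 to 700 FPKM in lin28Tg libraries against 32.5 to 52.7 in WT and 22.99 to 53.7 in let-7Tg libraries. The sum of 5 dendritic cell markers was 360 to 1079, 107 to 190 and 86.2 to 179 FPKM in the same order, and that of 5 NK cell markers 77.3 to 121, 28.7 to 55.9 and 20.1 to 37.1 FPKM. The sum of 6 erythroid markers, mostly globins, was 494 to 1994, 153 to 292 and 1.92 to 38.7 FPKM. For 4 markers of CD4 and regulatory T cells it was 24.1 to 83.5, 12.9 to 23.75 and 14.0 to 19.35 FPKM. For 5 B cell markers it was 28.8 to 33.0, 18.8 to 21.4 and 14.25 to 21.1 FPKM. The sum of 4 stromal markers was lowest in lin28Tg libraries, at 40.2 to 46.3, 62.7 to 63.8 and 68.0 to 73.8 FPKM. All 6 myeloid and all 5 dendritic markers, 3 of 5 NK cell markers and 4 of 5 erythroid markers tested were called higher in naive lin28Tg than in WT cells. At 12 h the dendritic sums were 27.7 to 56.4 FPKM in lin28Tg, 14.9 to 30.1 in WT and 8.47 to 27.8 in let-7Tg cells, carried mostly by H2-Ab1, and the erythroid sums were 83.3 to 693, 26.1 to 103 and 0.774 to 4.34 FPKM. Between lin28Tg and let-7Tg cells at 12 h, 3 of 5 myeloid, 2 of 5 dendritic and 4 of 5 erythroid markers tested were called higher in lin28Tg. In CTLs the myeloid sums were 8.99 to 13.8 FPKM in lin28Tg, 3.94 to 7.02 in WT and 3.70 to 6.50 in let-7Tg libraries, with 2 of 3 markers tested called higher in lin28Tg than in let-7Tg, while the defining markers Lyz2 and Csf1r were at 0.0807 FPKM or less. Of the NK cell markers 2 passed the filter in CTLs, Klrb1c and Eomes, of which Eomes is also a transcription factor of effector CD8 T cells, and both were higher in lin28Tg than in let-7Tg CTLs, while Ncr1 was at 0.0896 FPKM or less. The part of these cells in the receptor levels below was not tested.

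Sequences bear on the receptors through the let-7 seed, and the transgenic let-7g and one endogenous relative are shown with bases 2 to 8, the seed, in capitals. The 9 mature let-7 and miR-98 sequences of the mouse in RefSeq (GRCm38.p6) all carried this seed.
mmu-let-7g-5p: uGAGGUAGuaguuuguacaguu
mmu-let-7a-5p: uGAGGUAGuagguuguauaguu
The gene of let-7g lies on the plus strand of chromosome 9, where the mature sequence takes chr9:106178846-106178867. The transcript letters that pair with the seed are CTACCTC, CTACCTCA where an A follows, and TACCTCA where only bases 2 to 7 pair before the A, and 1 transcript of each receptor was searched on its own strand for all of them, with overlapping letters counted as 1 match. Only 2 of the 8 receptors held a match in the annotated 3′ UTR, Tnfrsf1b and Cd226. The match of Tnfrsf1b is the longer one of 8 bases, shown in capitals with its neighbouring bases because no other receptor carried it.
Tnfrsf1b: cctgtctcttcCTACCTCAgcctggagcac
It lies 770 bases after the stop codon in exon 10 of 10, within the 3′ UTR, at chr4:145215010-145215017 on the minus strand of GRCm38 (GENCODE M21). Among the 21021 genes with an annotated 3′ UTR, 13.3% held any such match and 2.68% one of 8 bases. Of 3′ UTRs of a length like that of Tnfrsf1b (2324 bases), 24.9% held a match. Cd226 held a match of 7 bases, 1169 bases after the stop codon, in 2 of its 4 annotated coding transcripts, and 29.1% of 3′ UTRs of like length held one. Cd28, with the longest 3′ UTR of the group at 3574 bases, held none, and neither did Tnfrsf9 with 1232 bases. A match is a description of letters, not of binding.

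**Figure D1:**
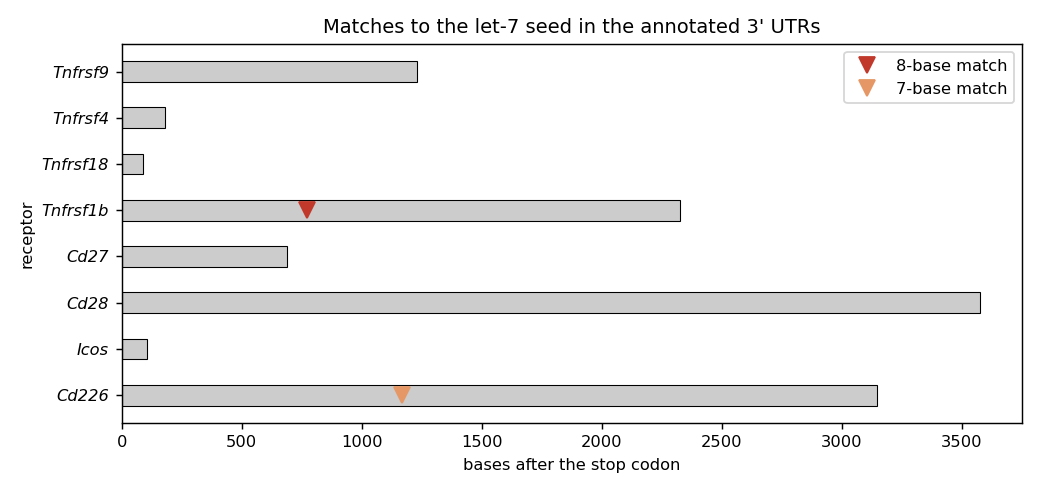
Annotated 3′ UTR of 1 transcript of each of the 8 receptors, drawn as a bar from the stop codon (x axis, bases after the stop codon), with triangles at matches to the let-7 seed. The 8-base match of Tnfrsf1b lies at 770 bases and the 7-base match of Cd226 at 1169 bases, and the other 6 bars carry no triangle.

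Some of these genes are neighbours in the genome. Tnfrsf4 (chr4:156013843-156016612, plus strand) and Tnfrsf18 (chr4:156026164-156028895, plus strand) are separated by 9551 bases, and Cd28 (chr1:60716800-60773359) and Icos (chr1:60977927-61000320) by 204567 bases on the same strand. Tnfrsf1b (chr4:145213463-145246870, minus strand) and Tnfrsf9 (chr4:150914562-150946102, plus strand) lie farther off on chromosome 4, and Cd27 lies at chr6:125232622-125237010 on the minus strand. Of the 1524 exon bases of Tnfrsf18, 414 are shared with the antisense gene Gm16008, and 129 of the 2328 exon bases of Cd27 with the miRNA gene Mir8113 on the same strand. The strand setting of the read counting is not given in the sources used here, so reads from the bases shared with Gm16008 cannot be assigned to one strand.

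Levels per length set the receptors in a different order at each stage. In naive cells Cd27 had the highest group mean of the 8 in all 3 genotypes, at 577 ± 59.6 FPKM in WT cells (SD, n = 3), and Tnfrsf9 the lowest in WT and let-7Tg cells, at 7.40 ± 1.45 FPKM in WT cells (SD, n = 3). After 12 h Tnfrsf9 had the highest mean in WT and lin28Tg cells, at 536 ± 73.2 and 629 ± 28.4 FPKM (SD, n = 3 each), and Cd27 in let-7Tg cells, at 524 ± 49.3 FPKM (SD, n = 3). At day 5 the receptor with the highest mean was the same as at 12 h in each genotype. Tnfrsf4 took the lowest place of the 8 in lin28Tg CTLs at 12.2 ± 3.16 FPKM (SD, n = 3), and Cd226 the lowest in WT and let-7Tg CTLs.

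**Figure D2:**
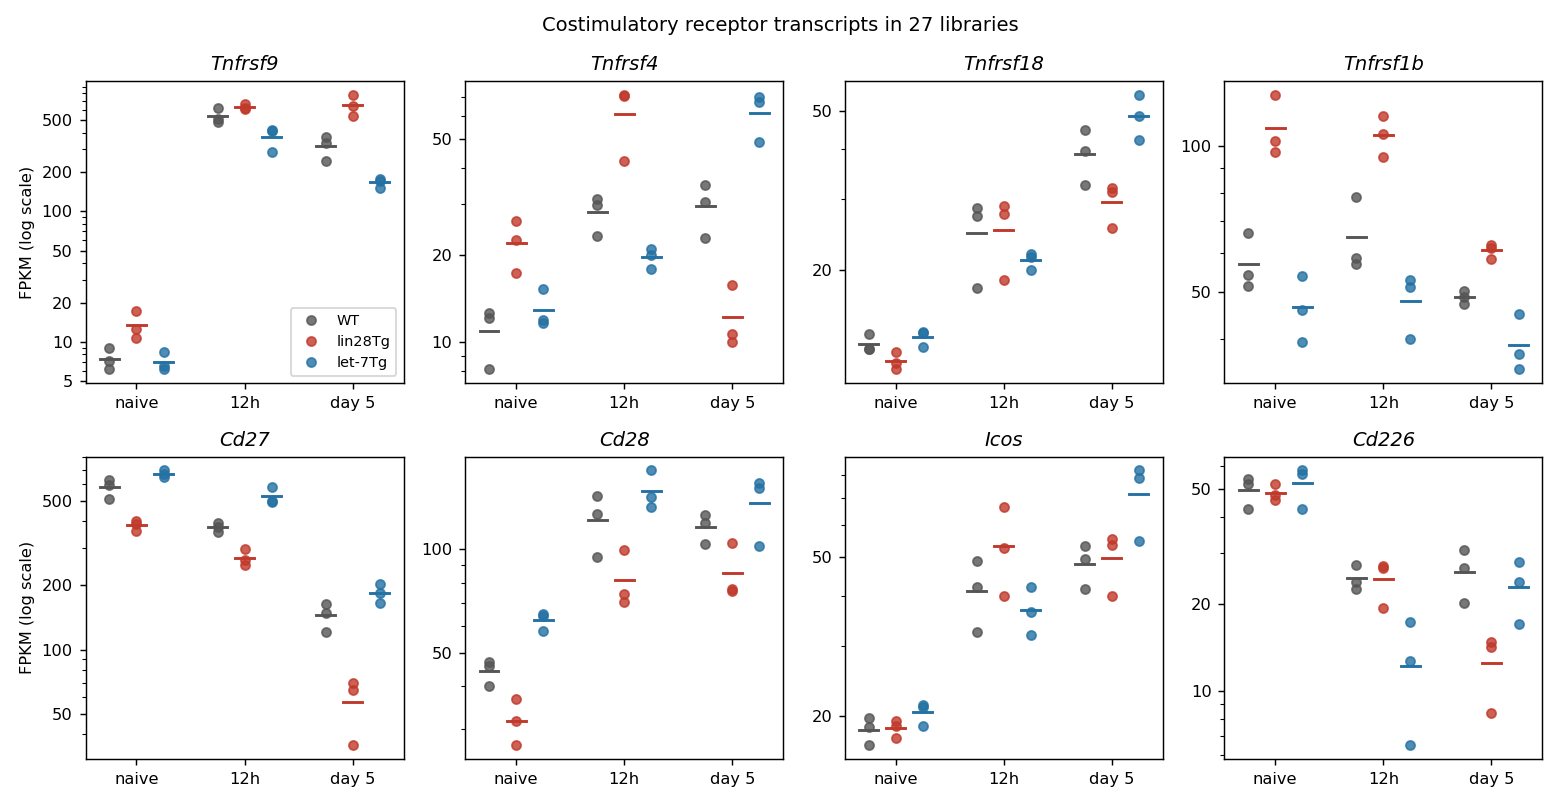
FPKM (y axis, log scale, a range of its own in each panel) of the 8 receptors in 27 libraries by stage (x axis), with 1 point per library and a line at the mean of each group of 3. Tnfrsf9 lies at 6.14 to 17.1 FPKM in naive cells and at 150 to 780 FPKM in activated cells, and Tnfrsf4 has lin28Tg libraries above WT in naive and 12 h cells and below WT at day 5.

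Differences between genotypes were tested within each stage with limma on log2(FPKM + 0.5) after scaling between libraries, so that folds of low genes are understated, and a gene is called at a Benjamini-Hochberg adjusted p under 0.05 over all genes tested. The comparisons at one stage share libraries, and their values are set side by side below. In naive cells 5 of 8 receptors were called between lin28Tg and WT, where 35.6% of all genes tested were called, none between let-7Tg and WT (0.896% of genes) and 5 between lin28Tg and let-7Tg (44.9%). The median size of the difference between lin28Tg and WT, whatever its direction, was 0.60 over the 8 receptors and 0.24 over all genes (log2). The receptors were chosen with earlier results of these data known, and the median of all genes includes low genes with understated folds. Such medians are therefore a description and no test of the receptors as a group. Tnfrsf9, Tnfrsf4 and Tnfrsf1b were higher and Cd27 and Cd28 lower in naive lin28Tg cells than in either other genotype. In the comparison with no call, limma gave an unadjusted p under 0.05 for 2 receptors, Tnfrsf1b and Cd28, and limma voom on recovered reads called 0.

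After 12 h of activation 3 receptors were called between lin28Tg and WT (8.35% of genes), 1 between let-7Tg and WT (3.18%) and 6 between lin28Tg and let-7Tg (30.9%). Tnfrsf4 and Tnfrsf1b were higher and Cd27 was lower in lin28Tg cells than in WT, and Cd27 alone was higher in let-7Tg cells than in WT. At day 5 the counts were 3 (4.33% of genes), 1 (0.936%) and 6 (21.7%) in the same order. Between lin28Tg and WT CTLs Tnfrsf9 was higher and Tnfrsf4 and Cd27 were lower, and Tnfrsf9 alone was called between let-7Tg and WT CTLs, lower in let-7Tg. The median size of the difference between lin28Tg and let-7Tg was 0.91 over the receptors and 0.23 over all genes at 12 h. At day 5 it was 0.76 and 0.25, again as a description only. Libraries of day 5 with the same replicate number deviated together, and with the replicate number as a block the day 5 counts became 5, 3 and 8 receptors, and those over all genes 1729, 531 and 4695 in place of 564, 122 and 2823.

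**Figure D3:**
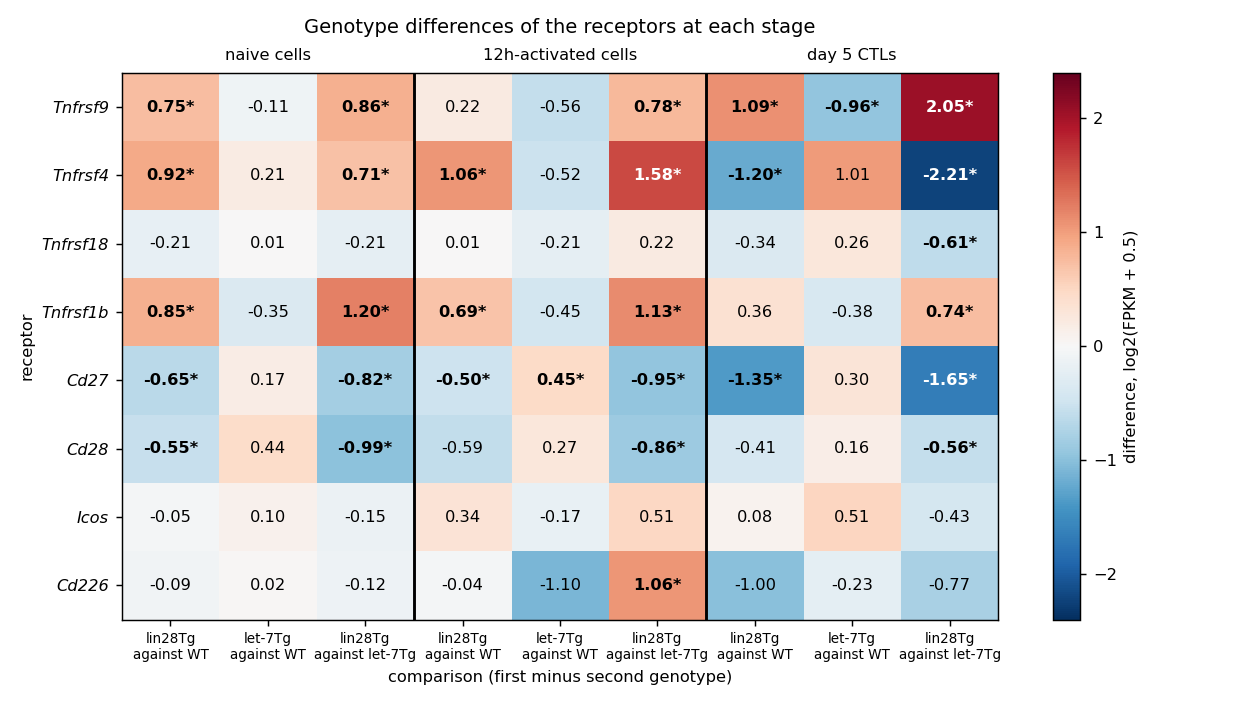
Log2 differences, on the log2(FPKM + 0.5) scale, of the 8 receptors (rows) in the 9 genotype comparisons (columns, 3 at each stage), with red for higher and blue for lower in the first genotype and an asterisk at an adjusted p under 0.05. Tnfrsf4 turns from 1.58 at 12 h to -2.21 at day 5 between lin28Tg and let-7Tg. In that comparison Cd27 and Cd28 are negative and Tnfrsf9 and Tnfrsf1b are positive at every stage.

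Tnfrsf9 encodes CD137, a receptor whose signal is known to sustain proliferation and survival of activated CD8 T cells. In naive cells it stood at 8.98, 7.07 and 6.14 FPKM in the WT libraries, 10.7, 17.1 and 12.6 FPKM in the lin28Tg libraries and 8.29, 6.23 and 6.55 FPKM in the let-7Tg libraries. After 12 h the values were 505, 619 and 483 FPKM in WT, 611, 615 and 662 FPKM in lin28Tg and 412, 422 and 282 FPKM in let-7Tg cells. In CTLs they were 373, 331 and 243 FPKM in WT, 533, 780 and 642 FPKM in lin28Tg and 172, 177 and 150 FPKM in let-7Tg libraries. Every lin28Tg library lay above every WT and let-7Tg library in naive cells and in CTLs, and at 12 h the WT and lin28Tg ranges overlapped. The difference of lin28Tg from WT was 0.75 ± 0.19 in naive cells (log2 ± SE, adjusted p = 0.0145), 0.22 ± 0.14 at 12 h (adjusted p = 0.365) and 1.09 ± 0.17 at day 5 (adjusted p = 0.0134). The difference of let-7Tg from WT was -0.11 ± 0.19 (adjusted p = 0.851), -0.56 ± 0.14 (adjusted p = 0.057) and -0.96 ± 0.17 (adjusted p = 0.0451) at the same stages. Between lin28Tg and let-7Tg the difference was 0.86 ± 0.19, 0.78 ± 0.14 and 2.05 ± 0.17 (adjusted p = 0.00555, 0.00296 and 0.00022). The naive call of lin28Tg against WT was lost without WT replicate 3 (adjusted p = 0.0553), and that at day 5 without lin28Tg replicate 3 (adjusted p = 0.0563). Under the replicate block this day 5 difference had an adjusted p of 0.00535. The call between let-7Tg and WT CTLs was kept in 1 of 9 fits that left out a library, the one without WT replicate 3, and was lost in 6 other fits with all libraries of both groups, such as that without the filter on low reads (adjusted p = 0.0917). With the replicate block its adjusted p was 0.0215.

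Activation raised Tnfrsf9 more than any other of the 8 receptors. From naive cells to 12 h it rose by 6.30 ± 0.18 in WT (log2 ± SE, 78.6-fold, adjusted p = 1.83e-17), 5.72 ± 0.18 in lin28Tg and 5.81 ± 0.18 in let-7Tg cells (adjusted p = 1.46e-16 and 5.47e-17). From 12 h to day 5 it fell in WT and let-7Tg cells, with changes of -0.90 ± 0.18 and -1.24 ± 0.18 (adjusted p = 0.000154 and 2.9e-06). The change in lin28Tg cells over the same time was 0.01 ± 0.18 (adjusted p = 0.98). The gap between lin28Tg and let-7Tg was larger at day 5 than at 12 h by 1.25 ± 0.26 (adjusted p = 0.00122) and larger than in naive cells by 1.16 ± 0.26 (adjusted p = 0.00183), by interaction terms in a limma model of all 27 libraries.

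Tnfrsf4 encodes OX40, an inducible receptor that supports survival and memory. The values in naive cells were 12.6, 8.07 and 12.1 FPKM in WT, 17.3, 26.3 and 22.5 FPKM in lin28Tg and 11.7, 15.3 and 11.9 FPKM in let-7Tg libraries. After 12 h they were 29.8, 23.2 and 31.3 FPKM in WT, 42.3, 70.4 and 71.3 FPKM in lin28Tg and 21.04, 17.9 and 20.0 FPKM in let-7Tg cells. In CTLs they were 34.98, 22.8 and 30.5 FPKM in WT, 15.8, 10.7 and 10.1 FPKM in lin28Tg and 67.0, 69.8 and 48.9 FPKM in let-7Tg libraries. The 3 genotypes did not overlap at 12 h or at day 5, and their order was reversed between these stages, with lin28Tg highest at 12 h and lowest at day 5. Against WT the lin28Tg level differed by 0.92 ± 0.20 in naive cells (log2 ± SE, adjusted p = 0.00704), 1.06 ± 0.21 at 12 h (adjusted p = 0.0134) and -1.20 ± 0.21 at day 5 (adjusted p = 0.018). The let-7Tg level differed from WT by 0.21 ± 0.20, -0.52 ± 0.21 and 1.01 ± 0.21 (adjusted p = 0.699, 0.184 and 0.0672), and with the replicate block the day 5 value had an adjusted p of 0.0243. Between lin28Tg and let-7Tg the differences were 0.71 ± 0.20, 1.58 ± 0.21 and -2.21 ± 0.21 (adjusted p = 0.0158, 0.00064 and 0.000295).

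Single libraries decided some of the Tnfrsf4 calls, though no fit turned a direction of a called difference. The 12 h call of lin28Tg against WT was lost without lin28Tg replicate 2 (adjusted p = 0.0696) or 3 (adjusted p = 0.0612). The day 5 call was lost without WT replicate 1 (adjusted p = 0.0726) or 3 (adjusted p = 0.0509), or without lin28Tg replicate 2 (adjusted p = 0.0696) or 3 (adjusted p = 0.0793). Under the replicate block this day 5 difference had an adjusted p of 0.00538. In naive cells the call of lin28Tg against let-7Tg was lost without lin28Tg replicate 2 (adjusted p = 0.055) or let-7Tg replicate 3 (adjusted p = 0.0563).

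Between 12 h cells and CTLs, which were cultured differently, Tnfrsf4 changed in opposite directions in lin28Tg and let-7Tg cells. From naive cells to 12 h Tnfrsf4 rose by 1.54 ± 0.23 in WT, 1.63 ± 0.23 in lin28Tg and 0.78 ± 0.23 in let-7Tg cells (adjusted p = 2.63e-06, 1.17e-06 and 0.00429). From 12 h to day 5 it fell in lin28Tg cells, with a change of -2.30 ± 0.23 (4.93-fold, adjusted p = 9.72e-09), and rose by 1.52 ± 0.23 in let-7Tg cells (2.86-fold, adjusted p = 4.04e-06), with a change of -0.07 ± 0.23 in WT (adjusted p = 0.817). The difference between lin28Tg and let-7Tg changed by -3.82 ± 0.32 between 12 h and day 5 (adjusted p = 2.71e-08). Tested after its values were seen, the difference of lin28Tg from WT changed by -2.23 ± 0.32 over the same time (adjusted p = 0.000135) and that of let-7Tg from WT by 1.58 ± 0.32 (adjusted p = 0.0149). The last of these was lost without WT 12 h replicate 3 (adjusted p = 0.0641), WT CTL replicate 2 (adjusted p = 0.0549) or let-7Tg CTL replicate 2 (adjusted p = 0.0517).

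**Figure D4:**
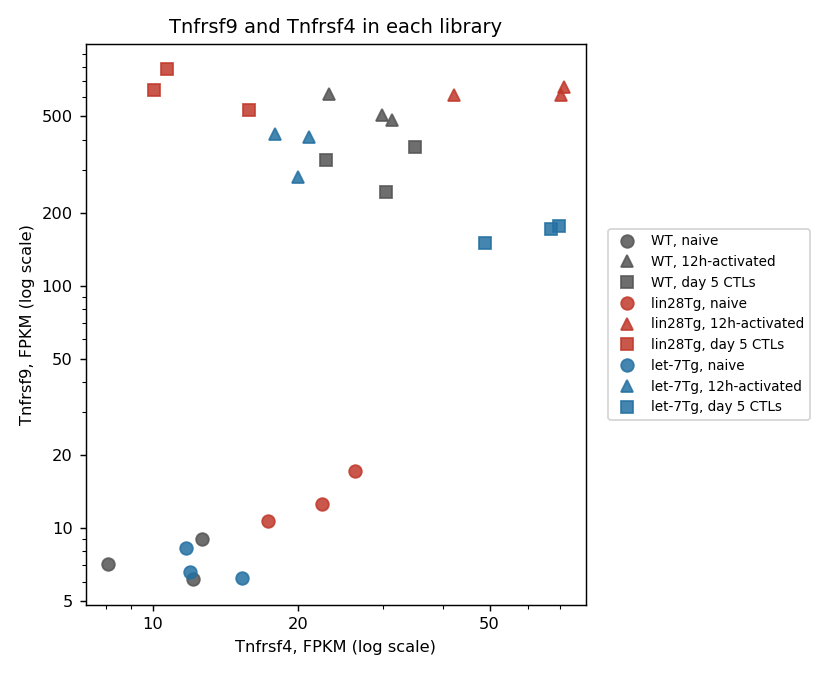
FPKM of Tnfrsf9 (y axis, log scale) against FPKM of Tnfrsf4 (x axis, log scale) in each of 27 libraries, with the genotype as colour and the stage as marker shape. The lin28Tg CTLs lie at 533 to 780 FPKM of Tnfrsf9 with 10.1 to 15.8 FPKM of Tnfrsf4, and the let-7Tg CTLs at 150 to 177 FPKM of Tnfrsf9 with 48.9 to 69.8 FPKM of Tnfrsf4.

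In the plot of Tnfrsf9 against Tnfrsf4 the CTLs of the 3 genotypes fell apart in opposite directions along the axes. The ratio of Tnfrsf9 to Tnfrsf4 per library was 33.7 to 72.9 in lin28Tg CTLs, 7.98 to 14.5 in WT CTLs and 2.54 to 3.07 in let-7Tg CTLs. At 12 h it was 8.73 to 14.5 in lin28Tg, 15.4 to 26.7 in WT and 14.1 to 23.6 in let-7Tg cells, so that lin28Tg cells were lowest there. The ratio was chosen after the values were seen and carries no test.

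Tnfrsf18 encodes GITR, a relative of Tnfrsf4 that adds to T cell activation. It lay at 12.7 to 13.8 FPKM in WT, 11.2 to 12.4 FPKM in lin28Tg and 12.8 to 14.0 FPKM in let-7Tg naive libraries. At 12 h the values were 28.5, 18.0 and 27.3 FPKM in WT, 18.8, 28.8 and 27.6 FPKM in lin28Tg and 21.9, 21.5 and 19.9 FPKM in let-7Tg cells. In CTLs they were 44.7, 39.6 and 32.5 FPKM in WT, 32.0, 25.4 and 31.3 FPKM in lin28Tg and 48.4, 54.7 and 42.1 FPKM in let-7Tg libraries. The genotypes overlapped at 12 h, and at day 5 all lin28Tg libraries lay below all others. Only the day 5 difference of lin28Tg from let-7Tg was called, at -0.61 ± 0.14 (log2 ± SE, adjusted p = 0.0133). This call was lost without lin28Tg replicate 2 (adjusted p = 0.0525) or let-7Tg replicate 2 (adjusted p = 0.0568). Under the replicate block the same difference had an adjusted p of 0.00827. Over the stages Tnfrsf18 rose by 1.07 ± 0.16 in WT, 1.23 ± 0.16 in lin28Tg and 0.81 ± 0.16 in let-7Tg cells up to 12 h (adjusted p = 3.62e-06, 5.18e-07 and 0.000117). It then rose further by 0.55 ± 0.16 in WT and 1.07 ± 0.16 in let-7Tg cells (adjusted p = 0.00507 and 4.34e-06), against 0.22 ± 0.16 in lin28Tg cells (adjusted p = 0.233). The gap between lin28Tg and let-7Tg shifted by -0.85 ± 0.23 between 12 h and day 5 (adjusted p = 0.0104).

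Tnfrsf1b encodes TNFR2, the TNF receptor that promotes survival and growth of T cells, and its transcript carries the 8-base match shown above. Naive values were 66.0, 54.0 and 51.4 FPKM in WT, 102, 127 and 97.1 FPKM in lin28Tg and 53.9, 39.5 and 46.0 FPKM in let-7Tg libraries. At 12 h they were 58.7, 78.4 and 57.1 FPKM in WT, 115, 94.9 and 105 FPKM in lin28Tg and 52.8, 51.2 and 39.9 FPKM in let-7Tg cells. CTLs had 48.7, 47.2 and 50.1 FPKM in WT, 58.5, 61.6 and 62.5 FPKM in lin28Tg and 37.2, 34.6 and 44.9 FPKM in let-7Tg libraries. At every stage all lin28Tg libraries lay above all WT and let-7Tg libraries, and at 12 h and day 5 all let-7Tg libraries lay below all WT libraries. Tnfrsf1b was higher in lin28Tg than in let-7Tg cells by 1.20 ± 0.14, 1.13 ± 0.13 and 0.74 ± 0.11 from naive cells to CTLs (log2 ± SE, adjusted p = 0.000241, 0.000343 and 0.00205). Against WT the lin28Tg level differed by 0.85 ± 0.14, 0.69 ± 0.13 and 0.36 ± 0.11 (adjusted p = 0.0023, 0.0125 and 0.109), with an adjusted p of 0.0316 for the last under the replicate block. The let-7Tg level differed from WT by -0.35 ± 0.14, -0.45 ± 0.13 and -0.38 ± 0.11, none of which was called (adjusted p = 0.293, 0.0932 and 0.162). The 12 h call against WT was lost without WT replicate 1 (adjusted p = 0.0571) or lin28Tg replicate 3 (adjusted p = 0.0512). Against let-7Tg, 6 of 6, 3 of 5 and 2 of 3 myeloid markers tested were also higher in lin28Tg from naive cells to CTLs. So were 5 of 5 and 2 of 5 dendritic markers in naive and 12 h cells. In CTLs the dendritic sum was 17.65 to 36.3 FPKM in lin28Tg and 30.6 to 61.0 FPKM in let-7Tg libraries. The part of these markers in the Tnfrsf1b level was not tested.

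Tnfrsf1b rose by 0.38 ± 0.14 in WT cells at 12 h (adjusted p = 0.0172), a call that was lost without WT naive replicate 3 (adjusted p = 0.0802), without WT 12 h replicate 2 (0.19, adjusted p = 0.243) and without scaling between libraries (0.17, adjusted p = 0.28). From 12 h to day 5 it fell in all genotypes, with changes of -0.51 ± 0.14 in WT, -0.81 ± 0.14 in lin28Tg and -0.40 ± 0.14 in let-7Tg cells (adjusted p = 0.0022, 2.11e-05 and 0.0144). The change in WT was -0.33 without WT 12 h replicate 2 (adjusted p = 0.0507). That in let-7Tg cells was lost without 12 h replicate 1 (adjusted p = 0.0852), without CTL replicate 2 (adjusted p = 0.0725) and without scaling (adjusted p = 0.0684).

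Cd27 encodes a receptor of resting and memory T cells that binds CD70. Its naive values were 511, 594 and 626 FPKM in WT, 402, 362 and 388 FPKM in lin28Tg and 646, 668 and 693 FPKM in let-7Tg libraries. At 12 h they were 357, 394 and 377 FPKM in WT, 297, 263 and 251 FPKM in lin28Tg and 498, 581 and 493 FPKM in let-7Tg cells. At day 5 the values were 164, 122 and 148 FPKM in WT, 69.5, 35.6 and 64.4 FPKM in lin28Tg and 203, 183 and 166 FPKM in let-7Tg libraries. The 3 genotypes kept 1 order at all 3 stages, lin28Tg below WT and WT below let-7Tg, with no overlap of libraries. Cd27 was lower in lin28Tg than in WT by differences of -0.65 ± 0.09, -0.50 ± 0.07 and -1.35 ± 0.22 (log2 ± SE, adjusted p = 0.000963, 0.00399 and 0.0148). It was lower in lin28Tg than in let-7Tg by differences of -0.82 ± 0.09, -0.95 ± 0.07 and -1.65 ± 0.22 (adjusted p = 0.000168, 4.39e-05 and 0.00132). Most T cell markers were also lower in lin28Tg than in let-7Tg naive and 12 h cells (5 and 4 of 7). In CTLs as many of these 7 were called higher as lower, and both CD8 genes were lower. Cd247 went the other way, at 419 to 488 FPKM in lin28Tg against 151 to 162.5 FPKM in let-7Tg naive libraries. In CTLs it was at 261 to 310 against 89.8 to 101 FPKM. The part of these markers in the Cd27 and Cd28 levels was not tested. The let-7Tg level of Cd27 differed from WT by 0.17 ± 0.09, 0.45 ± 0.07 and 0.30 ± 0.22 (adjusted p = 0.426, 0.022 and 0.704). The 12 h call of let-7Tg against WT was lost without any 1 of the 3 WT libraries or without let-7Tg replicate 3 (adjusted p between 0.0529 and 0.0951). It was also lost with only the 6 libraries compared (adjusted p = 0.0645) and with all 27 libraries in 1 fit (adjusted p = 0.133). The day 5 call of lin28Tg against WT was lost without WT replicate 1 (adjusted p = 0.066). Under the replicate block this day 5 difference had an adjusted p of 0.00306.

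Cd27 and Cd226 were the receptors that fell in WT cells within 12 h of activation. Cd27 did so with a change of -0.40 ± 0.15 (adjusted p = 0.0225), and this call was lost without WT naive replicate 2 (adjusted p = 0.0702) or 3 (adjusted p = 0.0854). The changes in lin28Tg and let-7Tg cells were -0.31 ± 0.15 and -0.16 ± 0.15 (adjusted p = 0.0742 and 0.373), and without scaling between libraries that in lin28Tg cells was -0.51 (adjusted p = 0.0077). From 12 h to day 5 it fell in all genotypes, with changes of -1.51 ± 0.15 in WT, -2.33 ± 0.15 in lin28Tg and -1.61 ± 0.15 in let-7Tg cells (adjusted p = 1.34e-08, 1.47e-11 and 4.74e-09). The difference between lin28Tg and let-7Tg changed by -0.72 ± 0.22 from 12 h to day 5 (adjusted p = 0.02) and by -0.88 ± 0.22 from naive cells to day 5 (adjusted p = 0.00435). The first of these was lost without lin28Tg 12 h replicate 1 (adjusted p = 0.0506) or let-7Tg CTL replicate 1 (adjusted p = 0.0558), and it was -0.44 without lin28Tg CTL replicate 2, the CTL library with the lowest Cd27.

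Cd28 encodes the receptor for CD80 and CD86, and anti-CD28 antibody was part of the 12 h culture but not of the CTL culture. Naive values were 40.0, 47.0 and 45.9 FPKM in WT, 31.7, 26.98 and 36.7 FPKM in lin28Tg and 63.9, 58.1 and 64.8 FPKM in let-7Tg libraries. At 12 h they were 143, 95.2 and 126 FPKM in WT, 70.3, 74.3 and 99.5 FPKM in lin28Tg and 169, 132 and 142 FPKM in let-7Tg cells. CTL values were 119, 125 and 104 FPKM in WT, 104, 75.7 and 76.8 FPKM in lin28Tg and 156, 151 and 102 FPKM in let-7Tg libraries. The genotypes lay apart in naive cells, in the order lin28Tg, WT, let-7Tg, and overlapped in part at the later stages. Cd28 was lower in lin28Tg than in let-7Tg by differences of -0.99 ± 0.10, -0.86 ± 0.19 and -0.56 ± 0.17 (log2 ± SE, adjusted p = 0.000132, 0.00789 and 0.0413). The last call was lost in 6 of 9 fits that left out a library (adjusted p between 0.0584 and 0.145). It was also lost without the filter on low reads (adjusted p = 0.0735) and with only the 6 libraries compared (adjusted p = 0.067). Under the replicate block this day 5 difference had an adjusted p of 0.00808. Against WT the lin28Tg level differed by -0.55 ± 0.10, -0.59 ± 0.19 and -0.41 ± 0.17 (adjusted p = 0.00402, 0.0829 and 0.222), of which the naive one was called. The let-7Tg level differed from WT by 0.44 ± 0.10, 0.27 ± 0.19 and 0.16 ± 0.17 (adjusted p = 0.0877, 0.437 and 0.832).

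From naive cells to 12 h Cd28 rose by 1.64 ± 0.17 in WT, 1.53 ± 0.17 in lin28Tg and 1.43 ± 0.17 in let-7Tg cells (adjusted p = 1.83e-08, 5.37e-08 and 1.51e-07). The changes from 12 h to day 5 were -0.17, 0.05 and -0.24, each with an SE of 0.17, and none was called. The 3 tests of a change in the lin28Tg to let-7Tg difference between stages gave no call for Cd28, with values of 0.10, 0.28 and 0.38 and an SE of 0.25 each.

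Icos encodes an inducible relative of Cd28. It lay at 16.9 to 19.8 FPKM in WT, 17.7 to 19.5 FPKM in lin28Tg and 18.9 to 21.4 FPKM in let-7Tg naive libraries. At 12 h the values were 48.8, 32.4 and 42.1 FPKM in WT, 39.9, 52.7 and 66.7 FPKM in lin28Tg and 42.0, 36.3 and 32.0 FPKM in let-7Tg cells. In CTLs they were 49.3, 53.2 and 41.7 FPKM in WT, 55.5, 53.6 and 39.8 FPKM in lin28Tg and 78.7, 82.2 and 54.7 FPKM in let-7Tg libraries. Ranges of lin28Tg and WT libraries overlapped at every stage, and all let-7Tg CTLs lay above all WT CTLs. No genotype comparison called Icos at any stage, where the largest differences between lin28Tg and let-7Tg were 0.51 ± 0.20 at 12 h and -0.43 ± 0.17 at day 5 (log2 ± SE, adjusted p = 0.0882 and 0.113). With the replicate block at day 5, the difference of 0.51 ± 0.17 between let-7Tg and WT had an adjusted p of 0.0194 in place of 0.24, and that between lin28Tg and let-7Tg one of 0.00449. Icos rose by 1.32 ± 0.18, 1.65 ± 0.18 and 1.02 ± 0.18 in WT, lin28Tg and let-7Tg cells up to 12 h (adjusted p = 7.46e-07, 2.67e-08 and 2.56e-05). It rose again by 0.84 ± 0.18 up to day 5 in let-7Tg cells (adjusted p = 0.000254), where the changes in WT and lin28Tg cells were 0.11 and -0.11. The lin28Tg to let-7Tg difference changed by -0.95 ± 0.25 from 12 h to day 5 (adjusted p = 0.0092).

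Cd226 encodes an adhesion and signaling receptor that competes with TIGIT for PVR and Nectin-2. Its naive values were 42.5 to 54.0 FPKM in WT, 45.7 to 52.2 FPKM in lin28Tg and 42.5 to 57.9 FPKM in let-7Tg libraries, all overlapping. At 12 h they were 23.9, 22.5 and 27.2 FPKM in WT, 19.3, 27.04 and 26.6 FPKM in lin28Tg and 17.3, 6.50 and 12.7 FPKM in let-7Tg cells. At day 5 they were 26.6, 30.7 and 20.2 FPKM in WT, 14.2, 14.7 and 8.41 FPKM in lin28Tg and 23.9, 27.9 and 17.0 FPKM in let-7Tg libraries. The low group was thus let-7Tg at 12 h and lin28Tg at day 5, each below all libraries of both other genotypes. Between lin28Tg and let-7Tg the difference was called at 12 h, at 1.06 ± 0.31 (log2 ± SE, adjusted p = 0.0291), and stood at -0.77 ± 0.25 at day 5 (adjusted p = 0.0535, and 0.000735 with the replicate block). The 12 h value was 0.64 without let-7Tg replicate 2, the lowest library, and its call was lost without lin28Tg replicate 2 (adjusted p = 0.0961) or 3 (adjusted p = 0.0897), without the filter on low reads (adjusted p = 0.0656) and with only the 6 libraries compared (adjusted p = 0.0516). Against WT the let-7Tg difference at 12 h was -1.10 ± 0.31 (adjusted p = 0.0829), and the lin28Tg mean at day 5 was 12.5 ± 3.51 against 25.8 ± 5.28 FPKM in WT (SD, n = 3 each, limma adjusted p = 0.0578, and 0.00164 with the block).

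Cd226 fell from naive cells to 12 h in all genotypes, with changes of -0.79 ± 0.27 in WT, -0.80 ± 0.27 in lin28Tg and -1.95 ± 0.27 in let-7Tg cells (adjusted p = 0.0131, 0.0119 and 1.25e-06). The call in lin28Tg cells was lost without 12 h replicate 1 (adjusted p = 0.0634). From 12 h to day 5 Cd226 fell further in lin28Tg cells, with a change of -0.99 ± 0.27 (adjusted p = 0.0029) and rose by 0.86 ± 0.27 in let-7Tg cells (adjusted p = 0.00799), with a change of -0.06 ± 0.27 in WT. The rise in let-7Tg cells was 0.43 without 12 h replicate 2 (adjusted p = 0.106). The lin28Tg to let-7Tg difference changed by -1.85 ± 0.39 between 12 h and day 5 (adjusted p = 0.00131). This was the largest such change among the 8 receptors after that of Tnfrsf4.

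**Figure D5:**
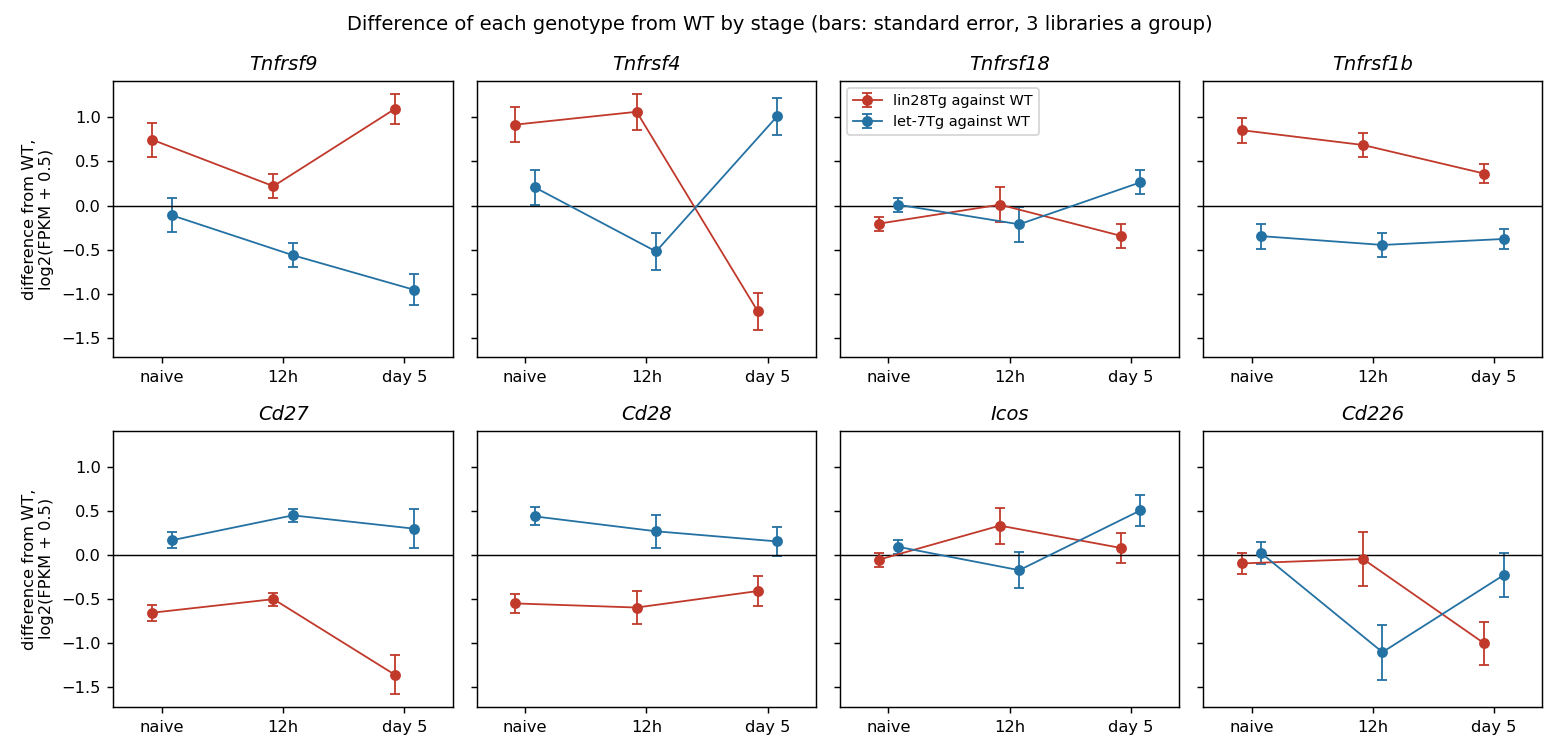
Difference from WT of lin28Tg (red) and let-7Tg (blue) cells on the log2(FPKM + 0.5) scale (y axis) by stage (x axis) for the 8 receptors, with bars for the standard error and 3 libraries in each group. The lines of Tnfrsf4 cross between 12 h, at 1.06 and -0.52, and day 5, at -1.20 and 1.01. Those of Tnfrsf9, Tnfrsf1b, Cd27 and Cd28 do not cross.

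Over the stages, 8 of 8 receptors were called between naive and 12 h cells in WT (71.0% of genes), upward but for Cd27 and Cd226. In lin28Tg and let-7Tg cells 6 were called each (73.4% and 69.5% of genes), upward but for Cd226, and the uncalled ones were Tnfrsf1b and Cd27. Between 12 h and day 5, 4 receptors were called in WT (67.3% of genes), 4 in lin28Tg (66.0%) and 7 in let-7Tg cells (66.8%). Those that rose were Tnfrsf18 in WT cells and Tnfrsf4, Tnfrsf18, Icos and Cd226 in let-7Tg cells, and the other called ones fell. Between naive cells and CTLs of WT mice 7 were called (65.3%), all but Tnfrsf1b. The shares of receptors called over the stages are thus to be read against backgrounds in which most genes were called. Without scaling between libraries, the median of all genes between naive and 12 h cells shifted by -0.14, -0.15 and -0.13 in WT, lin28Tg and let-7Tg cells, and the stage changes above are relative to the scaled level. The difference between lin28Tg and let-7Tg changed from 12 h to day 5 for 6 of 8 receptors (20.1% of genes), upward for Tnfrsf9 and downward for Tnfrsf4, Tnfrsf18, Cd27, Icos and Cd226. From naive cells to day 5 it changed for 3 (25.3% of genes), and from naive cells to 12 h for 0 (13.3%). In that last comparison limma gave an unadjusted p under 0.05 for 3 receptors, Tnfrsf4, Icos and Cd226, and limma voom on recovered reads called 0. In the tests added after the data were seen, the difference from WT changed between 12 h and day 5 for 3 receptors in lin28Tg cells (6.37% of genes), Tnfrsf9, Tnfrsf4 and Cd27, and for 1 in let-7Tg cells (1.47%), Tnfrsf4. The Tnfrsf9 call among these was kept in 3 of 12 fits that left out a library and was lost without the filter on low reads (adjusted p = 0.0723) and without scaling (adjusted p = 0.0726).

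The ligands of these receptors are made mostly by antigen-presenting cells, and T cells can make some of them. Of 11 ligand genes, 8 were tested in naive cells, of which 5 were higher and 0 lower in lin28Tg than in WT cells, with a median log2 difference of 0.67 against -0.05 over all genes, of which 35.6% were called. Icosl, the ligand of Icos, was at 23.2 ± 3.82 FPKM in lin28Tg and 9.31 ± 2.49 FPKM in WT naive cells (SD, n = 3 each), a difference of 1.22 ± 0.19 (log2 ± SE, adjusted p = 0.00186). Myeloid and dendritic markers were also higher in these naive lin28Tg libraries, as given above. At 12 h, 5 of 9 ligands tested were higher and 0 lower in lin28Tg than in let-7Tg cells, with a median of 0.98 against -0.02 over all genes, of which 30.9% were called. Of the markers tested at 12 h, 3 of 5 myeloid and 2 of 5 dendritic ones were higher in the same comparison, and the part of such cells in the ligand levels was not tested at any stage. Tnfsf4, the ligand of OX40, was at 2.62 to 4.02 FPKM in lin28Tg and 0.692 to 0.962 FPKM in WT cells at 12 h, a difference of 1.52 ± 0.18 (adjusted p = 0.00118). Cd70, the ligand of CD27, differed between lin28Tg and let-7Tg by 2.25 ± 0.33 at the same stage (adjusted p = 0.00126). Its levels were low, at 2.035 to 3.88 FPKM in lin28Tg and 0.0749 to 0.545 FPKM in let-7Tg cells. In CTLs, 2 of 9 were higher and 1 lower in lin28Tg than in let-7Tg cells, with a median of -0.15 against -0.01 (21.7% of genes called). Tnfsf9, the ligand of CD137, was at 7.94 to 10.7 FPKM in lin28Tg and 3.13 to 4.15 FPKM in let-7Tg CTLs, a difference of 1.29 ± 0.19 (adjusted p = 0.00212), and Tnfrsf9 itself was higher there too. Pvr, a ligand of CD226, was higher in lin28Tg than in let-7Tg CTLs by 1.35 ± 0.13 (adjusted p = 0.000334), and Cd80, a ligand of CD28, differed by -1.66 ± 0.25 (adjusted p = 0.00218).

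Other members of the TNF receptor superfamily did not move in 1 direction. Between lin28Tg and let-7Tg, 7 were higher and 2 lower of 17 tested in naive cells, 5 and 3 of 18 at 12 h, and 2 and 2 of 15 in CTLs, with medians of 0.26, 0.29 and 0.42 against -0.04, -0.02 and -0.01 over all genes. The shares called were 52.9%, 44.4% and 26.7%, against 44.9%, 30.9% and 21.7% of all genes. Cd40, a receptor of antigen-presenting cells, differed in naive cells by 2.10 ± 0.22 (log2 ± SE, adjusted p = 0.00015), beside the raised dendritic markers there. Tnfrsf8 (CD30), known on activated lymphocytes, was at 1.26 to 1.61 FPKM in lin28Tg and 0.149 to 0.179 FPKM in WT cells at 12 h, a difference of 1.499 ± 0.137 (adjusted p = 0.000494). Fas, the death receptor, was lower in lin28Tg than in let-7Tg CTLs, at 4.24 to 7.68 against 9.46 to 15.7 FPKM, a difference of -1.08 ± 0.23 (adjusted p = 0.00963). Tnfrsf14 (HVEM) differed in the same direction by -0.63 ± 0.13 (adjusted p = 0.00846). Tnfrsf23 differed in the other direction by 0.91 ± 0.25 (adjusted p = 0.0283), at 2.52 to 3.91 FPKM in lin28Tg and 0.901 to 1.81 FPKM in let-7Tg CTLs.

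Of the inhibitory and competing receptors Ctla4, Pdcd1, Btla, Tigit and Cd96, 1 was higher and 2 were lower in naive lin28Tg than in let-7Tg cells, 1 was higher and 0 were lower at 12 h, and 1 was higher and 1 lower in CTLs. The medians were -0.14, 0.26 and -0.05, and 3, 1 and 2 of 5 called stand against 44.9%, 30.9% and 21.7% of all genes. Pdcd1 (PD1) was at 12.2 to 38.0 FPKM in lin28Tg and 1.52 to 4.07 FPKM in let-7Tg CTLs, a difference of 2.86 ± 0.63 (log2 ± SE, adjusted p = 0.0123). Btla, which binds HVEM, was at 0.703 to 1.35 against 9.91 to 22.1 FPKM, a difference of -3.23 ± 0.60 (adjusted p = 0.00564). Ctla4, the inhibitory competitor of CD28, differed in naive cells by -0.91 ± 0.22 (adjusted p = 0.00754). Its levels there were low, at 0.0786 to 0.405 FPKM in lin28Tg and 0.598 to 1.12 FPKM in let-7Tg libraries.

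Genes of TRAF and NF-kB signaling, which act below the TNF receptors, were called in both directions between lin28Tg and let-7Tg, 5 higher and 6 lower of 23 in naive cells, 5 and 5 at 12 h and 2 and 4 in CTLs, with medians of -0.05, -0.03 and -0.17. The shares called, 47.8%, 43.5% and 26.1%, stand against 44.9%, 30.9% and 21.7% of all genes. Relb, a subunit of the noncanonical NF-kB pathway, was higher in naive lin28Tg cells by 0.83 ± 0.12 (log2 ± SE, adjusted p = 0.000569), and Nfkbib, an NF-kB inhibitor, was higher at 12 h by 0.97 ± 0.08 (adjusted p = 5.21e-05). Nfkbia, an inhibitor and target gene of NF-kB, was at 9.09 to 12.6 FPKM in lin28Tg and 28.4 to 32.8 FPKM in let-7Tg CTLs, a difference of -1.39 ± 0.27 (adjusted p = 0.00681). Of 22 genes of CD28 and ICOS signaling, 1 was higher and 10 were lower in naive lin28Tg than in let-7Tg cells, 2 and 4 at 12 h, and 3 and 3 in CTLs, with medians of -0.17, 0.02 and 0.02, and 11, 6 and 6 of 22 called stand against the same shares of all genes. Prkcq, the kinase PKC-theta that joins CD28 at the synapse, was lower in naive lin28Tg cells by a difference of -0.72 ± 0.08 (adjusted p = 0.000234) and in CTLs by -0.55 ± 0.13 (adjusted p = 0.015). Akt1 was the 1 member higher in naive lin28Tg cells, by 0.45 ± 0.08 (adjusted p = 0.00148). Grap2, the adaptor Gads, differed by -0.76 ± 0.13 in CTLs (adjusted p = 0.0032).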

How the data were processed

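RNA of P14 CD8 T cells was measured in 27 libraries, 3 for each of 9 groups taken from the labels. The reads were aligned with TopHat2 2.0.9 and Bowtie2 2.0.6 and counted with HTSeq 0.6.1, as the submitters' processing notes list (GRCm38). The authors deposited gene levels per library as FPKM, which corrects for gene length and library total but not for composition. Columns of group means, fold changes, p-values and clusters, the authors' own comparisons made with DESeq2, were not used. Whole reads were recovered from FPKM for 462839 of 462839 values above 0 (tolerance 0.02). The search stopped where the values of a gene came out whole, so this share is no check of the recovery. Gene lengths derived from the reads were whole for 8481 of 8481 genes with at least 500 reads in a library.

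limma 3.58.1 (R 4.3.3) was fitted to log2(FPKM + 0.5) after trimmed mean scaling (30% of ratios and 5% of levels trimmed), with moderated statistics and an intensity trend. Genes with at least 10 reads at median depth in at least 3 libraries and 15 in sum were tested. Genotypes were compared in the 9 libraries of a stage, stages in all 27, with Benjamini-Hochberg adjustment over all genes and 0.05 as the threshold. The fit was tested on simulated data. Same-numbered libraries deviated together at day 5 (r 0.246 to 0.714 in 9 of 9 pairs), so the block is given beside day 5 results. At each other stage r was over 0.1 in 3 of 9 pairs. Among pairs with different numbers it was over 0.1 in 6 of 18 in naive cells and 8 of 18 at 12 h. The 3 same-numbered pairs over 0.1 at 12 h were those of WT with let-7Tg libraries (r = 0.2402, 0.5495 and 0.4341). The main test of let-7Tg against WT at 12 h took no account of this. Alternatives were pseudocounts of 0.1 and 1, other filters and scalings, limma voom, other sets of libraries and leaving out each library. Named genes are the 8 receptors, the transgenes and, per list and stage, up to 3 called genes with the smallest adjusted p and groups apart. The members and lists were chosen with earlier results of these data known. Tables and figures were made in Python 3.11.15 (matplotlib 3.10.9, numpy 2.4.6, pandas 2.3.3). Sequences are from RefSeq and GENCODE M21, a release that may differ from the annotation of the files.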

Additional observations from a re-analysis of the deposited data

Results flagged for a closer look

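In 9 cases the difference between lin28Tg and let-7Tg changed between 2 stages by an interaction term of the limma model of all 27 libraries, on the log2(FPKM + 0.5) scale. From 12 h to day 5 it changed by 1.25 for Tnfrsf9, -3.82 for Tnfrsf4, -0.85 for Tnfrsf18, -0.72 for Cd27, -0.95 for Icos and -1.85 for Cd226. From naive cells to day 5 it changed by 1.16 for Tnfrsf9, -2.97 for Tnfrsf4 and -0.88 for Cd27 (adjusted p = 0.00183, 7.96e-07 and 0.00435). The adjusted p of the first 6 lay between 2.71e-08 and 0.02.

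Against WT the same test between 12 h and day 5, added after the data were seen, gave a change of the lin28Tg difference of 0.91 for Tnfrsf9, -2.23 for Tnfrsf4 and -0.82 for Cd27 (adjusted p = 0.0372, 0.000135 and 0.0238). The change for Tnfrsf9 was called in 3 of 12 fits that left out a library, and that for Cd27 was lost without WT CTL replicate 1 (adjusted p = 0.0752) and was -0.54 without lin28Tg CTL replicate 2. For the let-7Tg difference it was 1.58 for Tnfrsf4 (adjusted p = 0.0149). Tnfrsf4 was thus the one receptor of the 8 with a change in all 3 of these tests between 12 h and day 5. Groups of 3 libraries were not tested for single libraries that stood apart.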

How the results depend on the processing

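No setting reversed a called difference of a receptor. Of the values of single receptors under all alternatives, 2787 kept their side of the threshold and their sign, 75 lost a call and 42 gained one. The other 48 changed sign, without a call in the main fit or in the alternative. The count of receptors called between let-7Tg and WT at 12 h was 0 with only the 6 libraries compared and 2 with all 27 libraries in 1 fit, against 1. Between let-7Tg and WT CTLs it was 0 with a pseudocount of 0.1, without a filter, with a mean of at least 1 FPKM, without scaling, with limma voom and with only the 6 libraries compared, 2 with all 27 libraries and 3 with the replicate block, against 1. Between lin28Tg and WT CTLs it was 5 with the replicate block, against 3. The change of the lin28Tg to let-7Tg difference from naive cells to 12 h was called for 1 receptor with a pseudocount of 1 and for 1 without scaling, against 0. Leaving out 1 library at a time gave 0 to 1 receptors between let-7Tg and WT in naive cells, 1 to 4 between lin28Tg and WT and 0 to 3 between let-7Tg and WT at 12 h, and 1 to 5, 0 to 1 and 4 to 8 between lin28Tg and WT, let-7Tg and WT, and lin28Tg and let-7Tg at day 5. It gave 0 to 3 for the change from naive cells to 12 h, 2 to 3 for the added lin28Tg test and 0 to 1 for the added let-7Tg test. The replicate block also called Cd28 between lin28Tg and WT at 12 h (adjusted p = 0.0431) and changed no other call outside day 5. Over all genes the count between let-7Tg and WT was 42 to 118 in naive cells against 119, 46 to 677 at 12 h against 389 and 1 to 565 in CTLs against 122, and that between lin28Tg and WT CTLs 221 to 1729 against 564, under settings that kept all libraries of the groups. Leaving out 1 library gave 14 to 134, 5 to 698, 3 to 312 and 150 to 604. Without scaling, 34.98% of the genes that differed at day 5 were higher in lin28Tg than in let-7Tg, in place of 48.6%, and 66.4% in place of 52.1% between naive lin28Tg and WT cells. The cause of these changes was not tested. The lowest receptor value was 6.14 FPKM, and depth limits genes at lower levels, such as Tnfrsf8 at 0.149 FPKM in a WT library at 12 h.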

Other observations

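For each receptor the 3 genes with the most similar profile over 27 libraries were found by Pearson's r of log2(FPKM + 0.5) among 14453 genes, as a description, since the libraries share 3 stages that set most of the variation. Tnfrsf9 was most like Mpp6, Lman1 and Mthfd2 (r from 0.986 to 0.9905), and Mthfd2 is an enzyme of mitochondrial folate metabolism. Tnfrsf18 was most like Ctla4 (r = 0.975), Rfc1 and Hif1a. Cd27 was most like Arhgef3 (r = 0.973), Clcn2 and Ptpn6, of which Ptpn6 encodes the phosphatase SHP-1. Icos was most like Ccp110 (r = 0.963), Cish and Gatad1, and Cd28 like Hspa4l (r = 0.945), Zfp266 and Praf2. The closest profiles were less similar for Cd226 (Stk4, r = 0.897), Tnfrsf1b (Avpi1, r = 0.896) and Tnfrsf4 (Ckap4, r = 0.860). Tnfrsf4 had the lowest such r of the 8.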
